A study of Mus musculus with 8 samples.

Results

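The genes described are 36 mouse genes of the oligodendrocyte lineage and of myelin, followed in brain RNA of mice after a 17 h fast and of fed mice, with 4 arrays per group. They were taken by gene name or older name for their known place in the lineage, with no threshold on their values but with earlier results of these data known, and Cers2 stands in the files under its older name Lass2. All 36 were on the array, with 48 of its 39429 probes, and all 36 entered the test with 46 probes, out of 26066 probes and 16112 genes tested. By role they comprised 5 genes of precursors and newly forming oligodendrocytes, 4 transcription factors, 13 proteins of myelin and its membranes, 6 genes of myelin lipid chemistry and 8 other oligodendrocyte genes.

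The labels give the tissue as brain, with neither a region nor the strain, sex or age of the mice, and they do not say whether the 4 samples of a group came from separate animals. All p-values are thus set by how much these samples vary, and part of that variation may be technical. Each sample was read on a single-colour Agilent array, and between 24564 and 27219 probes stood well above background on an array. The arrays lay on 2 slides, each with 2 fasted and 2 fed arrays, so slide could be separated from fasting. On either slide the fasted samples took positions 1 and 3 and the fed samples took 2 and 4, so position and fasting cannot be told apart. The probe taken for each member was well above background on all 8 arrays, except that of Enpp6, which was so on 4 fasted and 3 fed arrays. This shows that the genes were detected in brain, not which cells their RNA came from.

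Oligodendrocytes are the glial cells that wrap axons of the central nervous system in myelin, a stack of lipid-rich membrane held together by a small set of abundant proteins. They arise from dividing precursor cells that carry the growth factor receptor PDGFRA, pass through a short stage in which they stop dividing and extend processes, and then switch on the myelin genes under transcription factors that include OLIG2 and SOX10. Myelin is unusually rich in galactosylceramide and its sulfated form, whose synthesis needs ceramide with long and often hydroxylated acyl chains.

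Values are given as scaled signal, the log2 of a probe's brightness over the 75th percentile of its array, so that 0 marks that percentile and 1 unit is a doubling. Since probes differ in how brightly they bind, the level of a gene is compared between samples for a single probe only. In sums over a list of genes the brightest probes weigh most. Differences are fasted minus fed on this log2 scale, with their standard error (SE), and a gene is said to have risen or fallen when the adjusted p from limma was below 0.05. Where a gene had several probes, the brightest represents it and the others are given beside it.

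Of the 36 oligodendrocyte genes, 9 fell in fasted brain, 6 rose and 21 did not pass the test. The 15 that passed are 41.7% of the members, where 18.4% of all genes tested passed in either direction. By direction, 8.94% of all genes were lower and 9.44% higher in fasted brain. In 18 members (50%) the 4 fasted and 4 fed values did not overlap, against 26.9% of all genes. The falls ran from 1.098-fold to 1.82-fold with a median of 1.24-fold, and the rises from 1.12-fold to 1.23-fold with a median of 1.19-fold. A fall of at least 1.5-fold was measured for 3 members, Ugt8a, Opalin and Pllp, among 73 genes of the whole array that fell that far, and no member rose that far, where 89 genes of the array did. In bulk brain, fewer oligodendrocytes and less RNA of a gene per oligodendrocyte cannot be told apart.

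**Figure D1:**
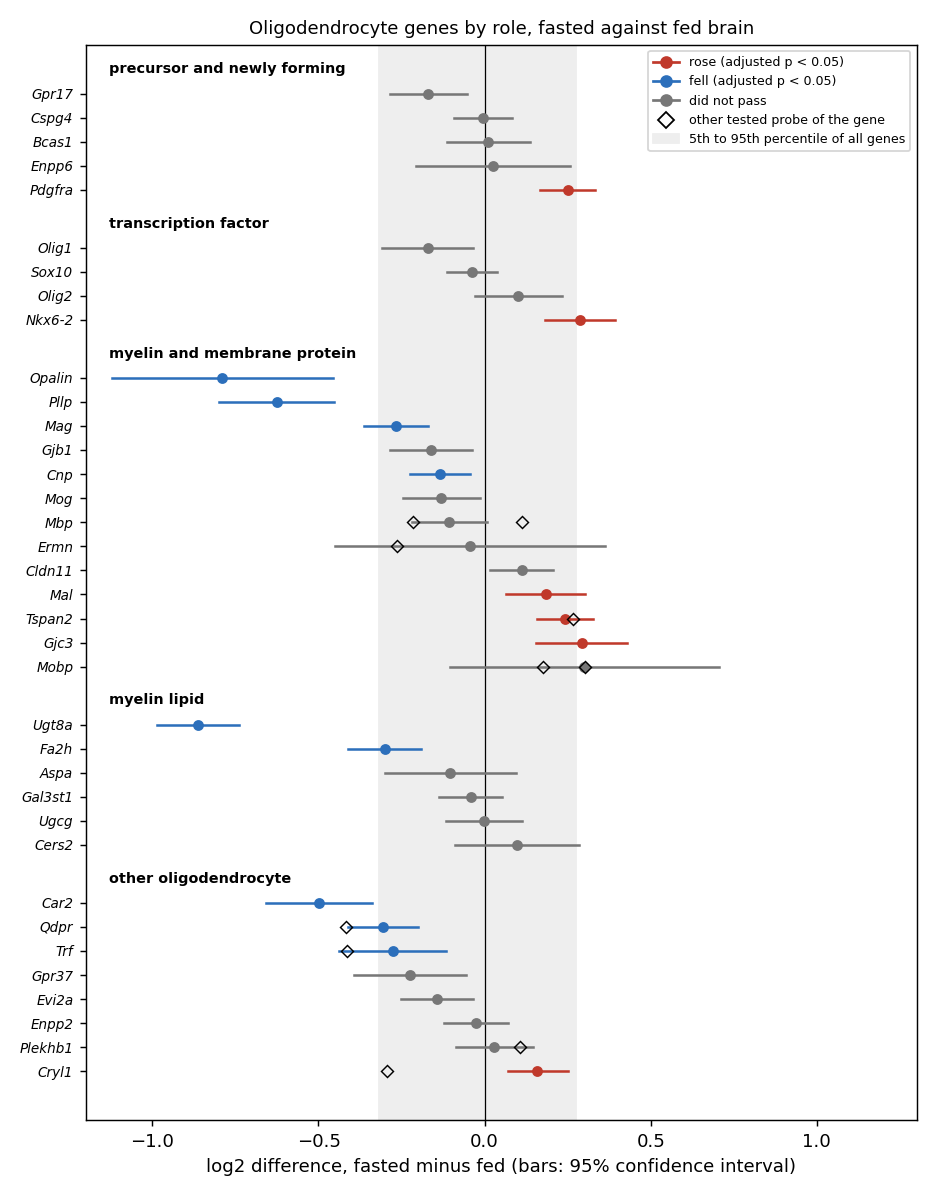
Log2 difference, fasted minus fed, of the 36 genes by role, with the 95% confidence interval of the brightest probe as a bar and other tested probes as open diamonds. The grey band spans the 5th to 95th percentile of all 16112 genes (-0.32 to 0.27). Ugt8a, Opalin, Pllp and Car2 lie left of the band, and Gjc3 and Nkx6-2 are the 2 risen genes at its right edge.

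The groups of genes by role had different medians, though they were not tested against each other. The 5 precursor and newly forming genes had a median difference of 0.01, with 1 risen and none fallen. The 4 transcription factors had a median of 0.03, also with 1 risen and none fallen. Among the 13 myelin and membrane proteins 3 rose and 4 fell, with a median of -0.11. The 6 myelin lipid genes had a median of -0.07, with 2 fallen and none risen. For the 8 other oligodendrocyte genes the median was -0.18, with 1 risen and 3 fallen. The share called was 20% of the precursor genes and 25% of the transcription factors, 1 gene each, against 18.4% of all genes tested. It was 53.8% of the myelin and membrane proteins, 33.3% of the lipid genes and 50% of the other oligodendrocyte genes. The median over all members was -0.04, and over all genes tested it was -0.01. Both directions thus occurred among the myelin and membrane proteins. Among the other oligodendrocyte genes the 1 rise was that of the brighter Cryl1 probe (0.16), and the dimmer Cryl1 probe fell (-0.29).

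**Figure D2:**
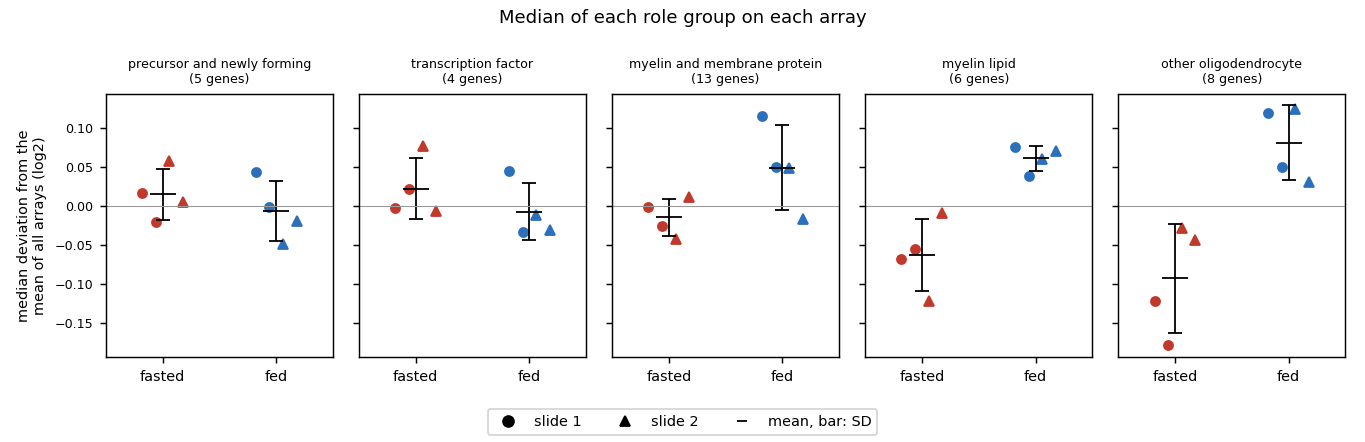
Median over the genes of each role, per array, of the scaled log2 signal after centring each gene on its mean over the 8 arrays, with fasted arrays left of fed arrays. Circles are slide 1, triangles slide 2, and bars the mean ± SD (n = 4). The 4 fasted arrays lie below the 4 fed arrays for the myelin lipid genes (-0.12 to -0.01 against 0.04 to 0.07) and for the other oligodendrocyte genes (-0.18 to -0.03 against 0.03 to 0.12), and the groups overlap for the remaining roles.

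Over all 8 arrays the largest fall of any member was that of Ugt8a, a myelin lipid gene. It encodes the enzyme that joins galactose to ceramide and so makes galactosylceramide. Its scaled signal was -1.49, -1.46, -1.498 and -1.34 in the fasted samples, against -0.47, -0.61, -0.61 and -0.66 in the fed samples. Every fasted sample lay far below every fed one, and the gap between the groups was several times the spread within either. The difference was -0.86 ± 0.05 (SE, n = 4 each), or 1.82-fold less signal after the fast (95% interval 1.67 to 1.98), with an adjusted p of 0.000635. Among all genes tested, whether or not they passed, Ugt8a ranked 16 from the most negative difference. The probe lies at chr3:125568995-125569054 of mm9, minus strand, and its first 30 bases are shown with the promoter, since both belong to the member that moved most. The promoter is that of RefSeq in GRCm38.p6 (chr3:125938603-125938902, minus strand), from 250 bases before to 50 bases after the gene's start. It has 78.3% G and C and 40 CpG steps, where promoters of the same length have a median of 52.7% and 7.
Ugt8a probe: atggagacaagtcacaactttcataaattc
Ugt8a promoter: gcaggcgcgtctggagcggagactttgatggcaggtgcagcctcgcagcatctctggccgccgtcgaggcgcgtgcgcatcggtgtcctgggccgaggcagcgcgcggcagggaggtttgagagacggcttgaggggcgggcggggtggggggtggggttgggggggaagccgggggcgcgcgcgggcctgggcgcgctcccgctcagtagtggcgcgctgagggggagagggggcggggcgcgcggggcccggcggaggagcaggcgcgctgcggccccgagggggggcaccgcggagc

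Fa2h, which adds the hydroxyl group to the fatty acids used in myelin galactosylceramide, was the other myelin lipid gene to fall. Its scaled signal was 0.68, 0.66, 0.64 and 0.81 in fasted brain, against 0.98, 0.96, 1.08 and 0.96 in fed brain. The groups did not overlap, and the difference was -0.30 ± 0.05 (1.23-fold lower, adjusted p = 0.0067). The enzyme that acts after Ugt8a, Gal3st1, sulfates galactosylceramide to sulfatide. It differed by -0.04 ± 0.04 (adjusted p = 0.522), with overlapping groups. Ugcg makes glucosylceramide from the same ceramide and differed by -0.001 ± 0.05 (95% interval of the difference -0.12 to 0.11, adjusted p = 0.988). Cers2, the ceramide synthase for very long acyl chains, differed by 0.10 ± 0.08 (adjusted p = 0.445). Aspa, which releases acetate from N-acetylaspartate in oligodendrocytes, differed by -0.10 ± 0.09 (adjusted p = 0.448). Of 6 lipid genes, then, the pair that acts on hydroxylation and galactosylation fell, and the other 4 did not pass.

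Opalin, a glycoprotein of the paranodal loops of myelin, had the second largest fall of the members. Its scaled signal was -2.17, -1.95, -2.32 and -1.58 in the fasted samples, against -1.15, -1.15, -1.31 and -1.26 in the fed samples. No values of the groups overlapped, but the fasted samples spread widely (SD 0.32, against 0.08 in fed samples), with fasted replicate 4 nearest to the fed level. Opalin fell by 0.79 ± 0.14, which is 1.73-fold (interval 1.37 to 2.18, adjusted p = 0.0106). Pllp encodes plasmolipin, a membrane-spanning protein of myelin. It measured -0.30, -0.13, -0.28 and -0.07 in fasted brain, against 0.57, 0.48, 0.32 and 0.35 in fed brain. All fasted values lay below 0 and all fed values above it, with a difference of -0.62 ± 0.08 (1.54-fold lower, adjusted p = 0.00264).

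The design places the probe of Opalin at chr19:41138452-41141030 of mm9 on the minus strand, a span of 2579 bases for 60 bases of probe, and that of Pllp lies at chr8:97199578-97199637, minus strand. Their first 30 bases are shown with the promoters, because these are the other members that fell by at least 1.5-fold. The promoters are at chr19:41077064-41077363 and chr8:94696193-94696492 of GRCm38.p6, both on the minus strand. Capitals mark ACAAAG, the core letters that SOX factors favour, and CAGCTG, an E-box form, each searched on both strands.
Opalin probe: tgtgaaatttcagaactctatgacaatccc
Opalin promoter: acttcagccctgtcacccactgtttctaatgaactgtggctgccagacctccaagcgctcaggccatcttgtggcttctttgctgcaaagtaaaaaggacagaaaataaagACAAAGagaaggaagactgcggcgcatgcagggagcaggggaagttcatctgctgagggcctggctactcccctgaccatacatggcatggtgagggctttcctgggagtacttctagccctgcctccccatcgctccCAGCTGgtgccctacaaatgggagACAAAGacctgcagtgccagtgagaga
Pllp probe: gatttctgggactggacgatttctgataac
Pllp promoter: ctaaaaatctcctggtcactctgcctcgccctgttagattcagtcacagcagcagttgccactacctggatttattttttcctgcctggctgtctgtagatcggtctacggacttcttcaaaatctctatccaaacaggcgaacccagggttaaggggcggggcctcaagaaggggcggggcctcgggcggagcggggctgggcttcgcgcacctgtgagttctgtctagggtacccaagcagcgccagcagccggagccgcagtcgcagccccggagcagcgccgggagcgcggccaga

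The 3 promoters differ in composition. That of Opalin has 4 CpG steps, 2 ACAAAG matches and 1 CAGCTG match, whereas that of Pllp has 20 CpG steps and, like that of Ugt8a, neither set of letters. RefSeq promoters were at hand for 26 of the members. ACAAAG stood in a promoter of 7 of these (26.9%), where 21% of all 27025 genes with promoters and 18.7% of the 32851 promoters held it. It was found in 3 of 6 fallen members with a promoter (Opalin, Mag and Cnp) and in 1 of 6 risen ones (Tspan2). The others that held it were Mobp, Gjb1 and Plekhb1, whose brightest probes did not pass. A link between these letters and the direction of change was not tested. CAGCTG stood in promoters of 4 members (15.4%), where 18.3% of all genes held it. These counts describe letters in a 300-base window and do not locate a binding site.

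Among the other myelin proteins, Mag and Cnp fell by less. Mag encodes the myelin-associated glycoprotein of the membrane that faces the axon. It measured 2.91, 2.86, 2.995 and 2.85 in fasted brain, against 3.21, 3.19, 3.15 and 3.13 in fed brain, without overlap, and its difference was -0.27 ± 0.04 (1.203-fold lower, adjusted p = 0.00631). Cnp, the nucleotide phosphodiesterase that keeps cytoplasmic channels in myelin open, measured 3.05, 3.07, 2.99 and 2.995 in fasted samples, against 3.21, 3.196, 3.14 and 3.09 in fed samples. The groups lay close together without overlap, at -0.14 ± 0.04 (1.098-fold lower), and the adjusted p of 0.0498 was only just below the threshold. The fall of Cnp no longer passed without fed replicate 1, 2 or 3 or without any 1 of the fasted replicates, where its adjusted p was 0.0713 to 0.118. It was also lost with median scaling (adjusted p = 0.0852), with the percentile taken over detected probes (0.0586) and without the filter on dim probes (0.114).

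At the same time 3 membrane proteins of oligodendrocytes rose. Gjc3 encodes connexin 29, a gap junction protein of myelinating cells. It measured -0.20, -0.30, -0.38 and -0.27 in fasted brain, against -0.51, -0.58, -0.50 and -0.72 in fed brain. Its groups did not overlap, and the difference was 0.29 ± 0.06 (1.23-fold higher, adjusted p = 0.0151). Tspan2, a tetraspanin of oligodendrocytes, measured 2.09, 2.09, 2.19 and 2.12 in fasted brain, against 1.91, 1.90, 1.89 and 1.83 in fed brain. Its groups were also separate, at 0.24 ± 0.04 (1.18-fold higher, adjusted p = 0.0055), and a dimmer probe gave 0.27 ± 0.06 (adjusted p = 0.0251). Mal, a small lipid-raft protein of compact myelin, measured 4.40, 4.25, 4.36 and 4.26 in fasted brain, against 4.12, 4.16, 4.21 and 4.04 in fed brain. Its difference was 0.18 ± 0.05 (1.14-fold higher, adjusted p = 0.0459), and the lowest fasted and highest fed values lay close to each other. This rise no longer passed without any 1 of the 8 samples (adjusted p of 0.0508 to 0.108) or with the slide as a block (adjusted p = 0.0546). It was also lost with median scaling (adjusted p = 0.0649), with normexp background (0.0576) and without the filter on dim probes (0.1).

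**Figure D3:**
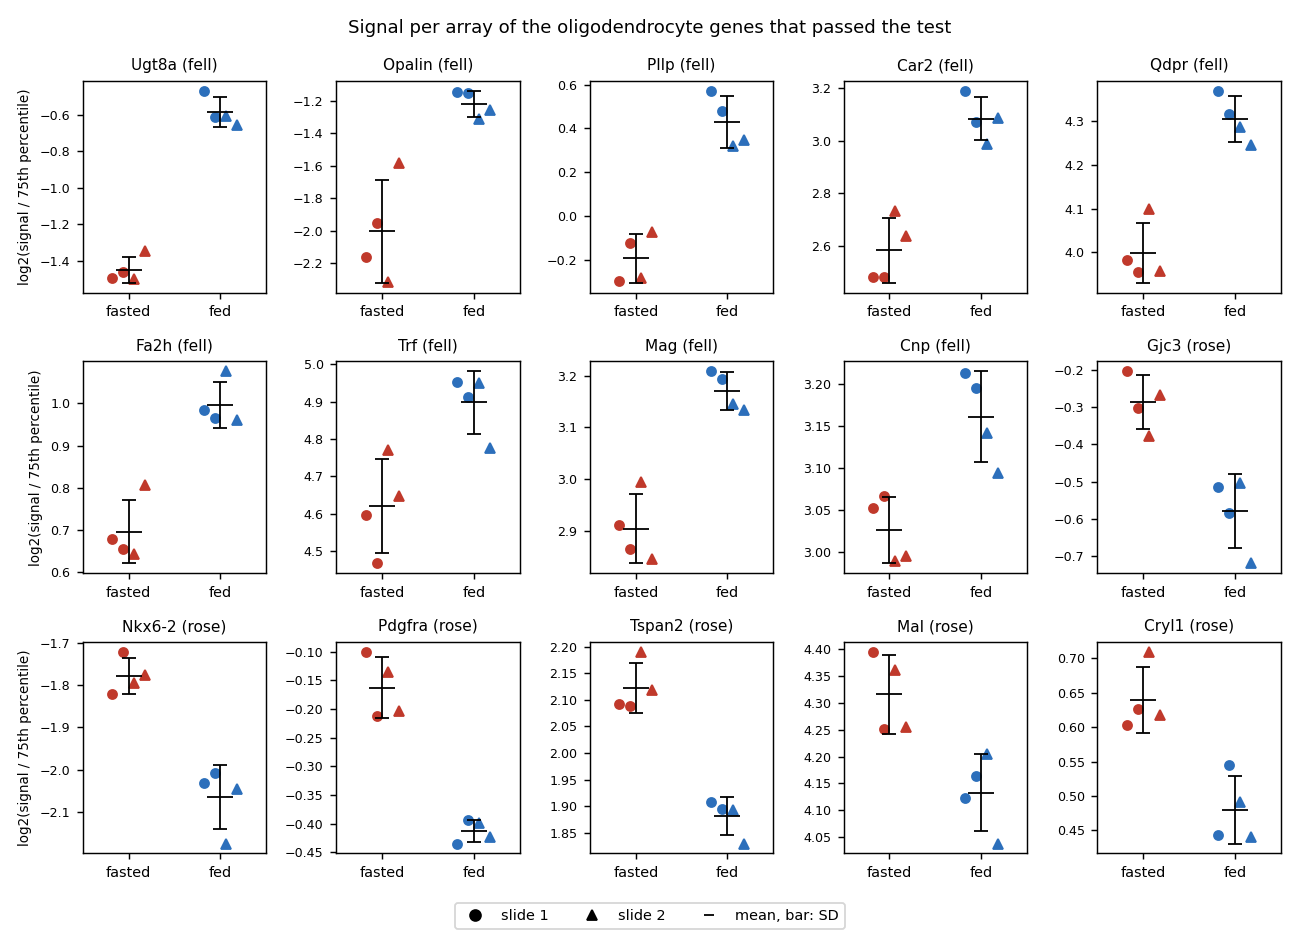
Scaled log2 signal of the 15 oligodendrocyte genes that passed, 1 panel per gene, with fasted samples left of fed samples. Circles are arrays of slide 1, triangles arrays of slide 2, and bars are the mean ± SD (n = 4). The axes do not start at 0 and differ between panels. In all 15 panels the values of the groups do not overlap.

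The remaining myelin proteins with a single probe did not pass. Mog, the oligodendrocyte glycoprotein of the outermost myelin layer, differed by -0.13 ± 0.05 (adjusted p = 0.117). Gjb1, which encodes connexin 32, differed by -0.16 ± 0.05 (adjusted p = 0.0755). Cldn11, the claudin that seals the layers of myelin, differed by 0.11 ± 0.04 (adjusted p = 0.101). In these 3 genes at least 1 fasted and 1 fed value overlapped.

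Several myelin genes had more than 1 probe, and their probes did not always give the same answer. The 3 probes of Mobp, a basic protein of compact myelin, all had higher means in fasted brain. The brightest measured 3.56, 3.42, 2.70 and 3.38 in fasted samples, against 2.88, 3.05, 3.08 and 2.85 in fed samples. Fasted replicate 3 lay below all fed samples and the other 3 fasted samples lay above them, and the difference of 0.30 ± 0.18 did not pass (adjusted p = 0.278). Without fasted replicate 3 it was 0.49 (adjusted p = 0.0112). The second probe of Mobp rose by 0.30 ± 0.07 (adjusted p = 0.0264) with separate groups: it measured 1.45, 1.22, 1.26 and 1.204 in fasted brain, against 1.01, 1.03, 1.06 and 0.82 in fed brain. The dimmest probe differed by 0.18 ± 0.08 (adjusted p = 0.194). The array design assigns the brightest Mobp probe to another transcript than the others. The 3 probes lie on the plus strand of chromosome 9 in mm9, at 120085150 to 120085209, 120077006 to 120077065 and 120078400 to 120078459. Their first 30 bases are shown, since the answer for this gene depends on the probe.
Mobp probe 1: gatttatcctgtctccagttatctggcact
Mobp probe 2: acccttcaccttcctcaactccaagcgtga
Mobp probe 3: gcccagatcttactccgtatctaaggttga

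Mbp encodes myelin basic protein, which binds the cytoplasmic faces of the membrane together, and its 3 probes did not pass and did not share a sign. The array design assigns the brightest of them to another transcript than the others. The brightest differed by -0.11 ± 0.05 (adjusted p = 0.178), measuring 2.30, 2.31, 2.35 and 2.31 in fasted samples, against 2.49, 2.28, 2.45 and 2.48 in fed samples. Fed replicate 2 lay below all fasted samples and the other 3 fed samples above them. Without fed replicate 2 the difference was -0.15 (adjusted p = 0.0289). The second probe differed by 0.11 ± 0.05 (adjusted p = 0.143) and the dimmest by -0.22 ± 0.10 (adjusted p = 0.188). No direction can therefore be given for Mbp as a gene.

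Ermn encodes ermin, a cytoskeletal protein of late oligodendrocytes. Its brightest probe measured 4.65, 4.68, 4.26 and 4.22 in fasted samples, against 4.78, 4.73, 4.11 and 4.36 in fed samples. These values split by slide and not by fasting, since all 4 arrays of slide 1 lay above all 4 arrays of slide 2, and the difference was -0.04 ± 0.18 (adjusted p = 0.894). The other probe measured 0.54, 0.37, 0.50 and 0.44 in fasted brain, against 0.72, 0.69, 0.79 and 0.70 in fed brain. There the groups were separate, and the probe fell by 0.26 ± 0.05 (adjusted p = 0.00874). The probes lie on the minus strand of chromosome 2 in mm9, at 57900470 to 57900529 and 57897554 to 57897613. They are shown because their letters differ in kind: bases 27 to 56 of the bright probe hold a run of 7 GAA units, set in capitals, and the first 30 bases of the other hold none.
Ermn probe 1: gagGAAGAAGAAGAAGAAGAAGAAgtttgg
Ermn probe 2: ctacctatcatctacctacctacctgctgt

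**Figure D4:**
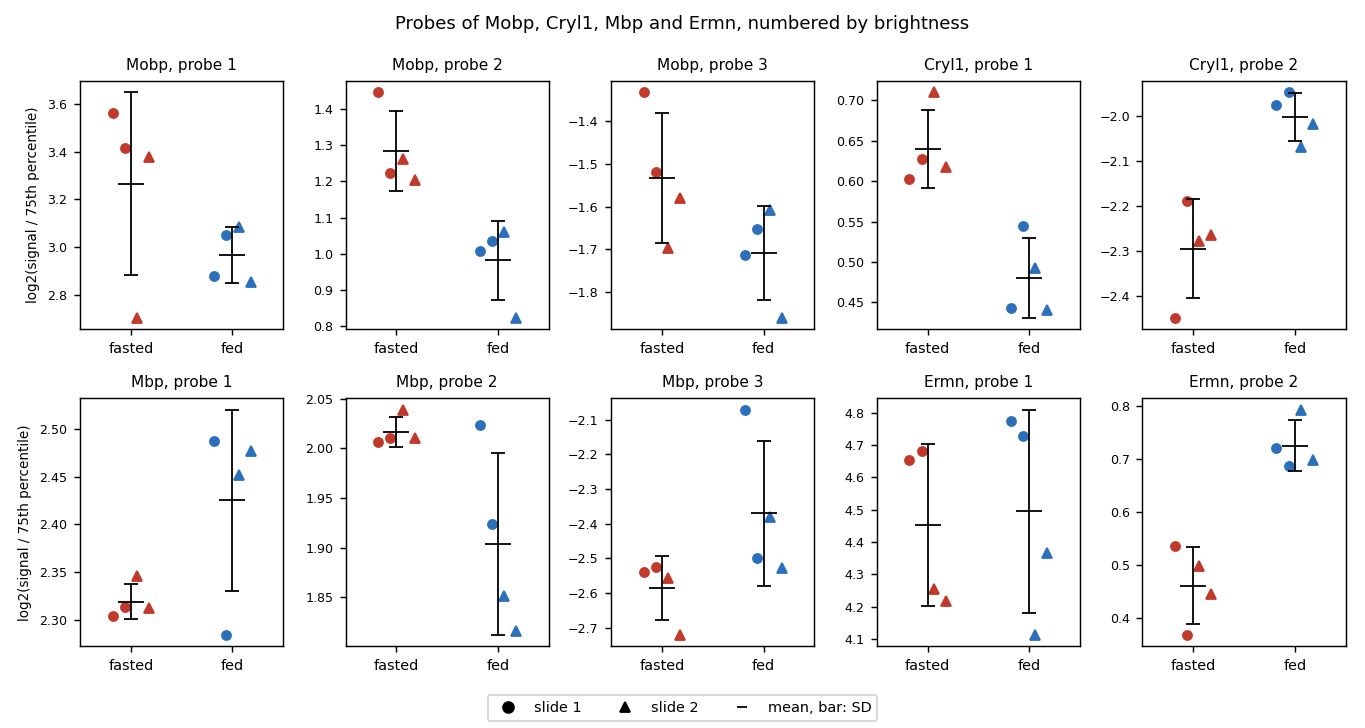
Scaled log2 signal of each probe of Mobp, Cryl1, Mbp and Ermn, numbered by brightness, with fasted samples left of fed samples. Circles are arrays of slide 1, triangles arrays of slide 2, bars the mean ± SD (n = 4), and the axes differ and do not start at 0. The probes of Cryl1 separate the groups in opposite directions, and the bright probe of Ermn splits by slide.

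The median of the precursor genes lay near 0. Pdgfra, the receptor that keeps precursors dividing, was the 1 gene of 5 to pass. It measured -0.10, -0.21, -0.14 and -0.20 in fasted brain, against -0.44, -0.39, -0.40 and -0.42 in fed brain. The groups were well apart, with a difference of 0.25 ± 0.04 (1.19-fold higher, interval 1.12 to 1.26, adjusted p = 0.00456). Its probe was printed 10 times on each array, so each value is a mean over several spots. Cspg4, the NG2 proteoglycan of the same cells, differed by -0.01 ± 0.04 (95% interval of the difference -0.09 to 0.08, adjusted p = 0.942). Of these surface markers of precursors, then, Pdgfra rose and no change of Cspg4 was detectable.

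Among genes of newly forming oligodendrocytes none passed. Gpr17, a receptor of cells that have just left the precursor stage, measured 2.06, 2.23, 2.27 and 2.12 in fasted brain, against 2.36, 2.34, 2.37 and 2.29 in fed brain. All fasted values lay below all fed values, but the difference of -0.17 ± 0.05 missed the threshold (adjusted p = 0.0563). It passed in 5 of 20 alternative settings: without fasted replicate 3 (-0.20, adjusted p = 0.0368), with quantile normalization (0.0257), with normexp background (0.0371), with the percentile over detected probes (0.0451) and with the filter on all arrays (0.045). Bcas1, which marks early myelinating cells, differed by 0.01 ± 0.05 (adjusted p = 0.915). Enpp6, a choline phosphodiesterase of newly forming cells, had a dim signal of -4.61 to -4.19 in fasted samples, against -4.51 to -4.25 in fed samples, and differed by 0.03 ± 0.10 (adjusted p = 0.889). A second Enpp6 probe was not well above background on any fasted array and was so on 3 fed arrays. It did not enter the test. Its mean was at least 1.38-fold lower in these fasted samples, a bound that carries no error. When all probes were tested its adjusted p was 0.0359, which rests on fasted signals not well above background. The measured fasted mean was -5.09, the fasted limit behind this bound was -4.80, and the fed mean was -4.34. The probes of Enpp6 therefore gave different answers near the background.

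Of the 4 transcription factors, Nkx6-2 alone passed. It is a homeodomain factor of maturing oligodendrocytes. Its scaled signal was -1.82, -1.72, -1.80 and -1.78 in fasted brain, against -2.03, -2.01, -2.17 and -2.05 in fed brain. The groups were separate, with a difference of 0.29 ± 0.05 (1.22-fold higher, adjusted p = 0.0066). Olig1, a basic helix-loop-helix factor needed for maturation, measured 2.07, 1.89, 2.13 and 1.99 in fasted brain, against 2.17, 2.15, 2.28 and 2.16 in fed brain. These values did not overlap either, but the difference of -0.17 ± 0.06 did not pass (adjusted p = 0.0856). It passed when the replicate number was a block (adjusted p = 0.0488), with quantile normalization (0.0459) and without fasted replicate 3 (-0.21, adjusted p = 0.0498). Olig2, its relative that specifies the lineage, differed by 0.10 ± 0.06 (adjusted p = 0.252). Sox10, the factor that switches on myelin genes, differed by -0.04 ± 0.03 (95% interval of the difference -0.11 to 0.04, adjusted p = 0.471). For Olig2 and Sox10 the groups overlapped.

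In the group of other oligodendrocyte genes, Car2, Qdpr and Trf fell. Car2, a carbonic anhydrase of oligodendrocytes, measured 2.48, 2.48, 2.73 and 2.64 in fasted brain, against 3.19, 3.07, 2.99 and 3.08 in fed brain. Its groups did not overlap, and the difference was -0.50 ± 0.07 (1.41-fold lower, adjusted p = 0.00419). Qdpr, which regenerates the cofactor tetrahydrobiopterin, measured 3.98, 3.96, 4.10 and 3.96 in fasted brain, against 4.37, 4.32, 4.29 and 4.25 in fed brain. It fell by 0.31 ± 0.05 with separate groups (adjusted p = 0.00527), and its other probe fell by 0.42 ± 0.04 (adjusted p = 0.00175). Trf, the iron carrier transferrin that oligodendrocytes make, measured 4.60, 4.47, 4.77 and 4.65 in fasted brain, against 4.95, 4.91, 4.95 and 4.78 in fed brain. Fasted replicate 3 and fed replicate 4 nearly met, and the difference was -0.28 ± 0.07 (1.21-fold lower, adjusted p = 0.0329). Trf's other probe fell by 0.41 ± 0.05 with a wide gap between the groups (adjusted p = 0.00199). The bright probe no longer passed without fasted replicate 1, 2 or 4 or without fed replicate 1, 2 or 3 (adjusted p of 0.0647 to 0.0806), with median scaling (0.0701) or without the filter on dim probes (0.073).

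Car2, Trf and Enpp2 are also active in the choroid plexus, the epithelium that secretes cerebrospinal fluid. Of 12 choroid plexus markers, all measured, 2 rose (Clic6 and Steap1) and none fell (16.7% called, against 18.4% of all genes tested). Differences were positive for 10 of the markers. They were negative for 2 that did not pass, Kcne2 (-0.27, adjusted p = 0.0751) and Sostdc1 (-0.25, adjusted p = 0.0916). The markers' summed level, in units of the 75th percentile, was 6.87 to 7.42 in fasted samples, against 6.08 to 7.03 in fed samples. Enpp2, the lysophospholipase autotaxin, differed by -0.03 ± 0.04 (adjusted p = 0.705). The part of this tissue in the 3 genes' values was not tested.

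Gpr37, a G-protein-coupled receptor of myelinating cells, differed by -0.22 ± 0.07 (adjusted p = 0.0736). It measured 0.43, 0.45, 0.75 and 0.63 in fasted brain, against 0.78, 0.74, 0.83 and 0.80 in fed brain, and only fasted replicate 3 reached the fed range. Without that sample the difference was -0.29 (adjusted p = 0.022), and with the slide as a block the adjusted p was 0.026. The other Gpr37 probe stayed near background in all 8 samples and was not tested. Evi2a, a membrane protein gene that lies inside an intron of Nf1, differed by -0.14 ± 0.05 (adjusted p = 0.0758) with separate groups. Plekhb1 differed by 0.03 ± 0.05 (adjusted p = 0.734), and its dimmer probe by 0.11 ± 0.12 (adjusted p = 0.587).

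Cryl1, a lambda-crystallin that acts as a gulonate dehydrogenase, gave opposite answers by probe. The brighter probe measured 0.60, 0.63, 0.71 and 0.62 in fasted brain, against 0.44, 0.55, 0.49 and 0.44 in fed brain, and rose by 0.16 ± 0.04 (adjusted p = 0.0304). The dimmer probe measured -2.45, -2.19, -2.28 and -2.26 in fasted brain, against -1.97, -1.95, -2.07 and -2.02 in fed brain, and fell by 0.29 ± 0.06 (adjusted p = 0.0147). Both probes separated the groups, in opposite directions, and their mean differed by -0.07 (adjusted p = 0.312). The rise of the brighter probe no longer passed without any 1 of the fasted replicates or without fed replicate 1, 3 or 4 (adjusted p of 0.0523 to 0.0759), or without the filter on dim probes (0.0766). The probes lie on the minus strand of chromosome 14 in mm9, at 57893984 to 57894043 and 57960926 to 57960985, and the array design assigns them to different transcripts. Their first 30 bases are shown because they carry the only pair of opposite calls among the members.
Cryl1 probe 1: acaggctgaagattctcaccttttctttcc
Cryl1 probe 2: taccagtgttgtctgtgaccgacgtcagct

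Both slides gave the same sign for all 15 genes that passed and for 32 of the 36 members. Ugt8a differed by -0.94 on slide 1 and by -0.79 on slide 2, Opalin by -0.91 and -0.67, and Pllp by -0.74 and -0.51. Car2 differed by -0.65 on slide 1 and by -0.35 on slide 2. Pdgfra was 0.26 higher in fasted brain on slide 1 and 0.24 higher on slide 2. With 2 arrays per group, neither slide alone gave a gene past the threshold: limma called 0 genes on each, while 3733 genes on slide 1 and 2489 on slide 2 had an unadjusted p below 0.05. The 11 called members other than Cnp, Mal, Trf and Cryl1 passed under 18 of 20 alternative settings, all but these within-slide fits.

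**Figure D5:**
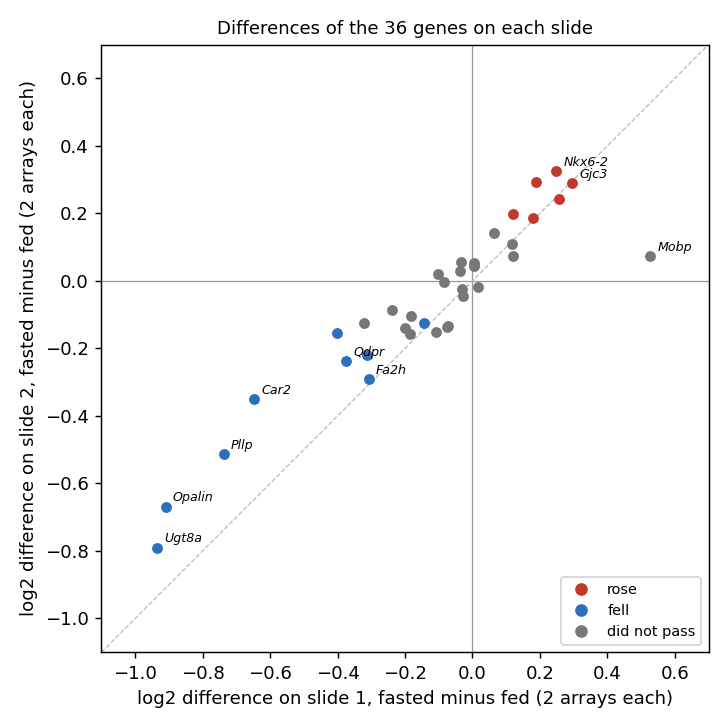
Log2 difference, fasted minus fed, of each of the 36 members on slide 1 (x axis) and slide 2 (y axis), 2 fasted and 2 fed arrays on each. The dashed line marks equal differences, and colours give the call. Ugt8a lies lowest on both slides (-0.94 and -0.79), and Mobp, whose bright probe had a low value in fasted replicate 3 on slide 2, lies far from the line (0.53 and 0.07).

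Further genes known from oligodendrocytes, which are not among the 36, were counted in the same fit. Like the members, they were listed with earlier results of these data known, so their share called is not independent support. Of 47 such genes 45 were tested, and 5 rose and 13 fell, with a median difference of -0.03. The share called was 40%, against 18.4% of all genes tested. Those with the smallest p included both directions. Klk6, a secreted protease of mature oligodendrocytes, fell by 0.71 ± 0.09 (adjusted p = 0.00327). Ninj2, an adhesion protein, fell by 0.57 ± 0.06 (adjusted p = 0.0019). Padi2, which deiminates myelin basic protein, fell by 0.48 ± 0.07 (adjusted p = 0.00429), with its other probe at -0.48. Myo1d, a class I myosin, fell by 0.41 ± 0.04 (adjusted p = 0.00194), and Il33, a nuclear cytokine that oligodendrocytes hold, by 0.41 ± 0.06 (adjusted p = 0.00394). Apod, the lipid-binding apolipoprotein D, went the other way. It measured 5.55, 5.64, 5.77 and 5.45 in fasted brain, against 4.83, 4.95, 4.997 and 4.94 in fed brain. Every fasted value was above every fed one, a rise of 0.67 ± 0.07 (1.59-fold, adjusted p = 0.00179), and its other probe rose by 1.44 (adjusted p = 0.00155).

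Further precursor genes numbered 20, of which 19 were tested, with 1 risen and 3 fallen and a median of -0.09. The share called was 21.1%, close to the 18.4% of all genes tested. Bmp4, a growth factor made by newly committed cells, rose by 0.33 ± 0.07 (adjusted p = 0.0137). Rlbp1, a retinaldehyde-binding protein, fell by 0.41 ± 0.06 (adjusted p = 0.00408). Cspg5, a proteoglycan known as neuroglycan C, fell by 0.25 ± 0.04 (adjusted p = 0.00865). Gpr37l1, a receptor related to Gpr37 that astrocytes also carry, fell by 0.17 ± 0.04 (adjusted p = 0.0211), a call lost under the replicate block (adjusted p = 0.0544), without fasted replicate 1 or 2 (0.0502 and 0.058), with normexp background (0.0526) and without the filter on dim probes (0.0575).

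Of 43 other genes of sphingolipid metabolism 39 were tested, with 4 risen and 4 fallen (20.5% called) and a median of 0.03. Degs2, which desaturates and hydroxylates ceramide precursors, rose by 0.60 ± 0.06 (adjusted p = 0.00154), and Kdsr, the enzyme of the second step of ceramide synthesis, rose by 0.16 ± 0.03 (adjusted p = 0.00842). Ormdl2, a member of the family that restrains the first step, fell by 0.34 ± 0.04 (adjusted p = 0.00172), with its other probe at -0.26 (adjusted p = 0.0562). The glycolipid carrier Gltp fell by 0.28 ± 0.04 (adjusted p = 0.00368), but its other probe gave -0.04 (adjusted p = 0.8). Cers4, a ceramide synthase, fell by 0.17 ± 0.03 (adjusted p = 0.0096). B4galnt1, which builds complex gangliosides, fell by 0.13 ± 0.03 (adjusted p = 0.0329), a call lost under the replicate block (adjusted p = 0.055), without fasted replicate 1, 2 or 4 and without fed replicate 1, 2 or 3 (adjusted p of 0.0724 to 0.0819), with median scaling (0.142), with normexp background (0.0689) and without the filter on dim probes (0.0867). The wider pathway thus had as many risen as fallen genes, at a share close to that of all genes.

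Markers of other brain cell types were measured in the same samples, 12 for each type and all tested. None of the neuronal markers passed limma's test (1 had an unadjusted p below 0.05), with a median of 0.05 and a summed level of 259.3 to 272.9 in fasted samples, against 251.8 to 264.2 in fed samples. Of the astrocyte markers 3 rose (Fgfr3, Gjb6 and Slc1a2) and 1 fell (Aqp4), which is 33.3% called, with a median of 0.09. Their summed level of 76.7 to 81.9 in fasted samples did not overlap the 67.1 to 70.7 of fed samples. Among microglial markers 5 fell and none rose (41.7% called), with a median of -0.13, and all 12 differences were negative. Their sums were 59.4 to 63.8 in fasted samples, against 61.7 to 66.8 in fed samples. The endothelial markers had 1 risen and 3 fallen (33.3% called), with a median of -0.16. Their sums were 26.9 to 30.3 in fasted samples, against 27.0 to 28.7 in fed samples. By comparison, 41.7% of the 36 oligodendrocyte genes and 18.4% of all genes tested were called. The share called among the members was thus also that of the microglial markers, though 13 members had a positive difference and 23 a negative one. For the 36 oligodendrocyte genes the sum was 218.9 to 231.7 in fasted samples and 225.0 to 248.0 in fed samples. These summed levels overlapped although 18 of the genes separated the groups. The brightest probes weigh most in such a sum. Among them were those of Plekhb1 and Enpp2, which did not pass, of Trf, which fell, and of Mal, which rose. The bright probe of Ermn, also among them, split by slide (mean 4.71 on slide 1 and 4.24 on slide 2). The part of each probe in the overlap was not tested. The part of a shift between cell types in the values of single genes was not tested.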

How the data were processed

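Mouse brain RNA of 4 fasted and 4 fed samples was labelled with Cy3 from 0.1 ug of total RNA and hybridised to 8 Agilent arrays, per the labels. Spot intensity was read from the scanner output as deposited. Per the file headers, spatial and multiplicative detrending were on, the background method was code 7 and the software was Feature Extraction 11.0.1.1; per the submitters' processing notes it was 10.10.1.1. The design refers to mm9. The authors' deposited series table is a linear ratio that closely follows the scaled signal over a constant per probe. On the log2 scale the SD of their difference over the arrays had a median of 0.000179 over spots. The baseline of that constant is unknown. Its column medians were 0.970 to 0.993 for fasted and 0.987 to 1.02 for fed arrays. It served as an alternative.

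Processed intensities were divided by each array's 75th percentile (1651 to 1944), control and flagged spots (128 to 217 per array) were left out, and log2 values were averaged over a probe's spots. No spot was saturated. Probes well above background in at least 0.5 of their spots on at least 4 of 8 arrays were kept, whatever the group. The test was that of limma 3.58.1, R 4.3.3 (two-sided, Benjamini-Hochberg over 26066 probes, threshold 0.05), a procedure also tested on simulated data. The brightest kept probe stands for a gene. Accessions of 27521 probes were matched to RefSeq (GRCm38.p6) for names. Promoters are RefSeq's, and the exon or UTR under a probe was not analysed here. Each list's sum adds the linear scaled signals of its genes. A bound for a dim probe sets the brighter group's mean against the dimmer group's, where each array counts with the lowest signal that stood well above background if the probe lay under it.

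All members are named, and from each further list up to 6 genes with the smallest p among those past the threshold. Members and lists were chosen with earlier results of these data known. The groups share replicate numbers, but no label pairs the samples, and the main fit was unpaired. Same-numbered arrays deviated together from their groups' means (r of 0.18 to 0.29), so a replicate block was run as an alternative. Differently numbered arrays correlated at 0.05 to 0.27 within a slide and at -0.39 to -0.10 across slides, and same-numbered arrays are slide neighbours. Other alternatives were a slide block, each slide alone, other scalings, background and filters, the mean of probes, and leaving out each array. The number of arrays limits the precision.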

Additional observations from a re-analysis of the deposited data

Results flagged for a closer look

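Single values that stood apart from the other 3 of their group by Dixon's test were looked for in 92 groups of 4 values, each probe in each group. There were 4, where chance flags about 1 in 20 groups. Olig1 in fed replicate 3 was 2.28, against a mean of 2.16 in the other fed samples. The second probe of Mbp in fasted replicate 3 was 2.04, against 2.01 in the other fasted samples. The dimmest probe of Mbp in fasted replicate 4 was -2.72, against -2.54. Enpp2 in fasted replicate 1 was 4.74, against 4.65.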

How the results depend on the processing

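Against 2961 genes called over all arrays, 1740 were called without the filter on dim probes and 0 within slide 1 or slide 2. With any 1 array left out, 1871 (without fasted replicate 1) to 2557 genes, 7 to 11 lower members and 4 to 5 higher members were called; within either slide 0 members were called lower and 0 higher. Outside the within-slide fits, all alternatives gave 7 to 11 lower and 4 to 6 higher members. With the replicate block all 15 members called kept an adjusted p below 0.05 and 2575 genes were called; Olig1 passed as well (0.0488), and among the further genes named Gpr37l1 (0.0544) and B4galnt1 (0.055) were lost. The precursor median was -0.034 on slide 1 and -0.025 (without fasted replicate 3) to 0.027 with 1 array left out. The median of the other oligodendrocyte genes was -0.25 on slide 1, -0.11 on slide 2 and -0.22 to -0.15 with 1 array left out; that of the myelin proteins was -0.12 to -0.09, of the lipid genes -0.11 to -0.04 and of the transcription factors 0.02 to 0.05. Signs turned for Cryl1 with the mean of its probes (-0.067) and for 7 members that were not called. These were Bcas1 (-0.034 on slide 1, -0.001 with quantile normalization, -0.038 to 0.043 with 1 array left out), Ugcg (0.016 on slide 1, 0.017 with median scaling, 0.016 with normexp, -0.031 to 0.029 with 1 array left out), Cspg4 (0.028 on slide 2, 0.014 with median scaling, -0.025 to 0.024 with 1 array left out), Gal3st1 (0.020 on slide 2), and with 1 array left out Enpp6 (-0.024 to 0.114), Ermn (-0.171 to 0.050) and Enpp2 (-0.047 to 0.004). The cause of these changes was not tested. Median scaling gave 1369 higher and 960 lower genes, against 1521 and 1440 with the 75th percentile. Signal over background limits Enpp6, whose probes lie at its edge.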

Other observations

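The dimmer probe of Plekhb1, like the bright probe of Ermn, differed more by slide than by fasting: its mean was 1.15 on slide 1 and 0.83 on slide 2. Other member probes did so with smaller gaps. Among them were those of Cers2 (0.311 on slide 1 and 0.115 on slide 2) and the brighter Enpp6 probe (-4.26 and -4.45).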
